A study of Mus musculus with 32 samples.

Results

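Fcgbp and 9 further genes of the goblet cell secretory programme (Muc2, Agr2, Tff3, Spink4, Zg16, Clca1, Reg4, Spdef and Atoh1) were followed in Lgr5-EGFP+ cells sorted from mouse colonoids. These 10 genes were picked by name out of 23517 genes in the count table, with their levels and bethanechol changes in these same libraries already known. Their levels in both sets and their bethanechol changes are therefore given as a description without a test. All 10 genes were detected in every one of the 16 samples.

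Colonoids were grown from proximal colon crypts of 8 Lgr5-EGFP-IRES-CreERT2 mice, a knock-in line that carries EGFP and an inducible Cre at the Lgr5 locus, and were kept in L-WRN medium. Each mouse gave a culture left untreated and a culture that received 250 nM bethanechol, a muscarinic receptor agonist, for 4 days. Cells positive for Lgr5-EGFP were sorted, between 2361 and 13114 per sample, and their RNA was counted as unique molecular identifiers (UMIs) at the 3′ end of transcripts. The mice form 2 sets of 4, here named by their replicate numbers BR7-BR10 and BR1-BR4. BR1-BR4 are labelled male, their source is given as sorted Lgr5+ cells and their RNA came from the RNeasy Plus Micro kit. BR7-BR10 carry no sex label, their source is given as colonic organoids and their RNA came from the RNeasy Mini kit, while the series as a whole is described as holding 4 female and 4 male animals' organoids. The age of the mice was not given in the sources used here. Sex, kit and source therefore cannot be told apart in any difference between the sets. Xist lay between 44.7 and 162 CPM (UMI counts scaled to the TMM-normalised library size) in BR7-BR10 and between 11.9 and 24.5 in BR1-BR4. The Y-linked gene Eif2s3y lay between 2.5 and 8.6 CPM in BR7-BR10 and between 37.2 and 64.1 in BR1-BR4, so neither gene overlapped between the sets. The Y-linked genes Kdm5d and Uty did not overlap either and reached 0 in BR7-BR10 (at most 1.3 and 1.7 CPM there, and at least 2.4 and 2.3 in BR1-BR4), while Ddx3y overlapped (0.42 to 5.0 and 4.0 to 15.2 CPM).

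Each culture was counted in 2 technical replicates, which differed by less than counting noise and were summed to 1 sample. The sums held between 557512 and 4050342 UMIs. The stem cell markers Ascl2 (150 to 432 CPM) and Lgr5 (12.6 to 39.1 CPM) were present in all 16 samples, whereas the immune marker Ptprc stayed at or below 0.8 CPM and the tuft cell marker Il25 at or below 0.6 CPM. The 10 goblet genes together took 0.396% to 1.36% of all UMIs of a sample. In bulk samples of this kind, fewer goblet-type cells and less goblet RNA per cell cannot be told apart.

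Goblet cells are the mucus-secreting cells of the intestinal epithelium. Their fate is set by Atoh1, a basic helix-loop-helix transcription factor held down by Notch signalling, and their maturation by the ETS factor Spdef. Muc2 is the gel-forming mucin that builds the colonic mucus layer, Agr2 is an endoplasmic reticulum protein of the disulfide isomerase family needed for mucin folding, and Fcgbp, Clca1 and Zg16 are secreted proteins of the mucus itself. Tff3 is a trefoil peptide, Spink4 belongs to the Kazal-type protease inhibitors, and Reg4 is a C-type lectin that marks the deep crypt secretory cells neighbouring the Lgr5+ stem cells of the colon.

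Fcgbp lies on chromosome 7 of the GRCm38 build, from 28071236 to 28120862 on the plus strand, and Muc2 lies on the same chromosome and strand from 141690340 to 141754693. Both were the only genes of the 10 that were higher with bethanechol in all 4 mice of BR7-BR10, and their promoters are shown for that reason. The sequences are the 250 bases before the RefSeq start (GRCm38.p6), which is upstream and intergenic to the gene itself. They are written 5′ to 3′ on the plus strand, with the E-box CAGCTG, the kind of motif bound by Atoh1 and related factors, in capitals.
Fcgbp, chr7:28070986-28071235: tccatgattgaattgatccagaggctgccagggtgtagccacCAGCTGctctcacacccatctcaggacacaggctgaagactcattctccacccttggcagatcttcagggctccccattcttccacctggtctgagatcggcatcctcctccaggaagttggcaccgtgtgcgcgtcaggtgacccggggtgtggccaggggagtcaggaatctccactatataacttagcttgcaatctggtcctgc
Muc2, chr7:141690090-141690339: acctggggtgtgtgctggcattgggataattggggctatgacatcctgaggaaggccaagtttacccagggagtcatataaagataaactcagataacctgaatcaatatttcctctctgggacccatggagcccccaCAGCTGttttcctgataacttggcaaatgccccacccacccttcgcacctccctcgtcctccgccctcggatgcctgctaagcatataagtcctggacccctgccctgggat
The CAGCTG began 208 bases upstream of the start in Fcgbp and 112 bases upstream in Muc2. CAGCTG reads the same on both strands, and it was found in 13.0% of the 32851 RefSeq promoter windows. Of the 6 goblet genes with a window (Agr2, Atoh1, Fcgbp, Muc2, Reg4 and Spdef), Fcgbp and Muc2 held it. The looser E-box CANNTG, of which CAGCTG is a subset, was found in 66.2% of all windows and in 4 of the 6. Also scanned were TATAAA, found in 7.59% of windows and in Muc2 alone of the 6, and GGAT, found in 74.1% and in 5 of the 6. Fcgbp and Muc2 were picked by their bethanechol change, so nothing is read from the CAGCTG they share. The match is a description of the letters and no binding was measured.

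Fcgbp was the gene of the 10 with the highest fitted change in BR7-BR10. In untreated cells of mice 7, 8, 9 and 10 Fcgbp stood at 36.4, 40.9, 30.0 and 17.9 CPM, and with bethanechol at 55.3, 67.9, 44.9 and 40.1 CPM. Each of the 4 mice was higher with bethanechol, although the lowest treated value lay below the highest untreated value, so the 2 groups overlapped slightly. The mean went from 31.3 ± 10.0 to 52.1 ± 12.3 CPM (SD, n = 4 mice), and the fitted log2 fold change was 0.77 ± 0.19 (SE). The fitted value stayed between 0.63 and 0.84 without any 1 of the 4 mice. These values rest on 24 to 146 UMIs per sample in technical replicate 1. In BR1-BR4 the mice split. Untreated mice 1, 2, 3 and 4 stood at 38.1, 45.1, 76.2 and 41.3 CPM, and the treated cells at 21.7, 66.8, 49.1 and 55.1 CPM. Fcgbp was higher in 2 mice and lower in 2, the within-mouse log2 ratios ran from -0.79 to 0.56, and the fitted log2 fold change was -0.05 ± 0.19 (SE, n = 4). With 1 mouse left out the fitted value ran from -0.29 (without mouse 2) to 0.16 (without mouse 1). The difference between the changes of both sets was 0.83 ± 0.28 on the log2 scale (SE, 4 mice a set), and 0.65 to 1.07 without any 1 mouse.

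Untreated Fcgbp was lower in BR7-BR10 than in BR1-BR4 by a log2 difference of -0.65 ± 0.26 (SE, n = 4 and 4), which was -0.43 without mouse 3 and -0.41 without mouse 10, and 1 sample, the untreated culture of mouse 10 at 17.9 CPM, was the lowest of all 16 samples. Bethanechol-treated means were close, at 52.1 ± 12.3 CPM in BR7-BR10 and 48.2 ± 19.1 CPM in BR1-BR4 (SD, n = 4 each).

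Fcgbp has a long transcript, 7928 bases for the longest one annotated, and transcript length moved with the same comparisons. Among 683 genes with a longest transcript of 6000 to 8000 bases, the median log2 fold change was 0.09 in BR7-BR10, and among 643 such genes the median difference between untreated sets was -0.12. With the median of its length class subtracted, the change of Fcgbp in BR7-BR10 was 0.69 and its untreated difference -0.53. In the last 500 bases of its transcripts, 14.2% of windows of 65 bases were shared with the neighbouring gene 9530053A07Rik, which collected 11 UMIs in all 16 samples together, both technical replicates summed.

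**Figure D1:**
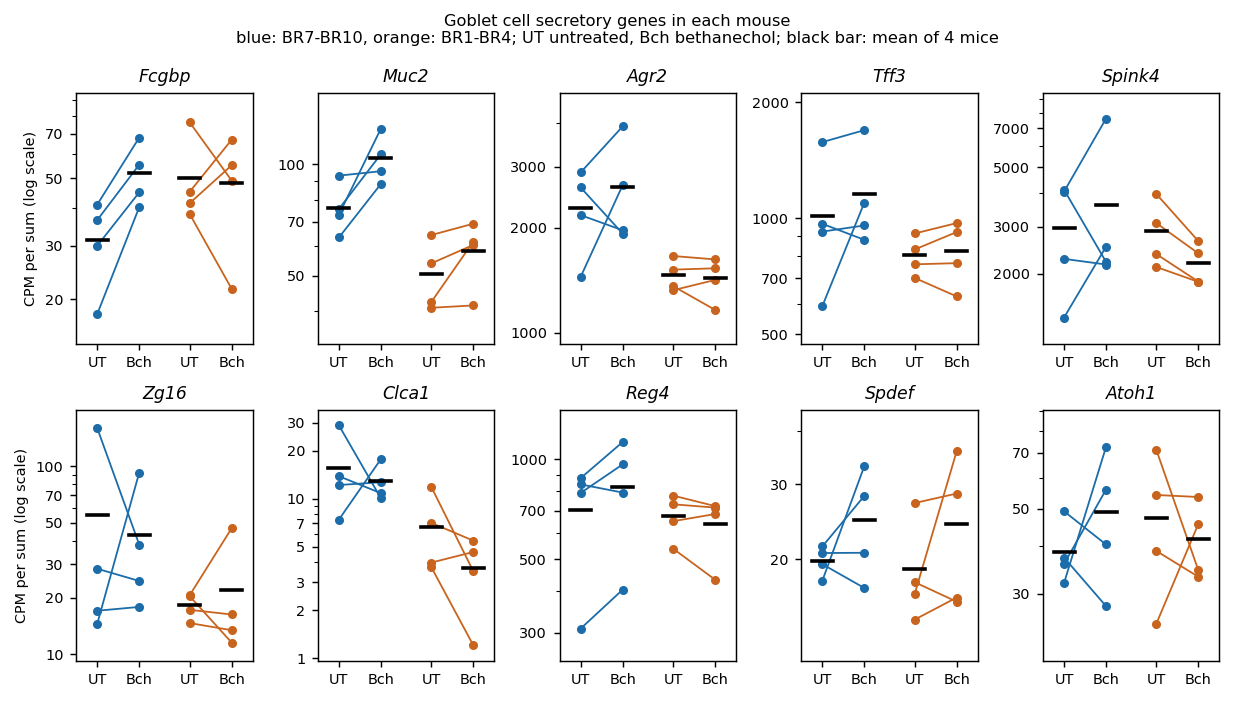
CPM of each of the 10 genes on a log axis in every mouse, untreated (UT) and with bethanechol (Bch), joined by a line for each mouse, with the mean of 4 mice as a black bar. All 4 lines of Fcgbp and of Muc2 run upward in BR7-BR10 (blue), and all 4 lines of Spink4 run downward in BR1-BR4 (orange).

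Muc2 was higher with bethanechol in all 8 mice, by a small margin in some. In BR7-BR10 it went from 63.4, 93.2, 75.7 and 73.1 CPM in untreated mice 7 to 10 to 88.5, 95.8, 106.6 and 125.1 CPM. In BR1-BR4 it went from 40.9, 42.4, 64.4 and 54.0 CPM in mice 1 to 4 to 41.5, 61.8, 69.1 and 60.5 CPM. The smallest of the 8 within-mouse log2 ratios was 0.02 and the largest 0.77, and treated and untreated values overlapped in both sets. The fitted log2 fold changes were 0.45 ± 0.16 in BR7-BR10 and 0.21 ± 0.16 in BR1-BR4 (SE, n = 4 each), which differed by 0.24 ± 0.22. Without mouse 2 the value in BR1-BR4 was 0.09, and the difference ran from 0.11 (without mouse 10) to 0.41 (without mouse 8).

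Agr2 in BR7-BR10 stood at 2888, 2178, 2615 and 1446 CPM untreated and at 3916, 1970, 1928 and 2654 CPM with bethanechol, higher in 2 mice and lower in 2. Its fitted log2 fold change was 0.18 ± 0.18 (SE, n = 4) there and -0.05 ± 0.09 in BR1-BR4, where all 8 samples lay between 1163 and 1661 CPM. The value in BR7-BR10 was -0.06 without mouse 10 and 0.40 without mouse 9, and that in BR1-BR4 was 0.005 without mouse 1. Tff3 lay between 592 and 1691 CPM in BR7-BR10 and between 627 and 972 CPM in BR1-BR4, with fitted log2 fold changes of 0.23 ± 0.16 and 0.01 ± 0.09 (SE, n = 4 each) and 3 of 4 mice higher in each set. Without mouse 10 the value in BR7-BR10 was 0.0001, and the value in BR1-BR4 ran from -0.016 to 0.061 with 1 mouse left out. Both genes have short transcripts, and in BR1-BR4 the 1049 genes of up to 1000 bases had a median log2 fold change of 0.17. With that median subtracted, Agr2 in BR1-BR4 was at -0.22 and Tff3 at -0.16, so that the value of Tff3 changed sign.

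Spink4 in BR1-BR4 was lower with bethanechol in all 4 mice, from 2369, 3093, 3973 and 2120 CPM to 1870, 2383, 2649 and 1866 CPM. The fitted log2 fold change was -0.38 ± 0.09 (SE, n = 4), and -0.44 to -0.30 without any 1 mouse. In BR7-BR10 it went from 4055, 2275, 4127 and 1371 CPM to 7607, 2167, 2218 and 2524 CPM, higher in 2 mice and lower in 2, with a fitted value of 0.21 ± 0.26 (SE, n = 4). That value was -0.03 without mouse 7 and without mouse 10, and 0.58 without mouse 9. Mouse 7 with bethanechol, at 7607 CPM, stood far above the other 3 treated mice of its set. The difference between the changes of the sets was 0.60 ± 0.37, and 0.34 to 0.97 with 1 mouse left out (lowest without mouse 7, highest without mouse 9). With the median of genes of up to 1000 bases subtracted, Spink4 in BR1-BR4 stood at -0.55.

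Reg4 was higher in 3 of 4 mice of BR7-BR10, at 878, 792, 841 and 308.5 CPM untreated and 1128, 966, 794 and 404 CPM with bethanechol, with a fitted log2 fold change of 0.24 ± 0.14 (SE, n = 4). In BR1-BR4 it was higher in 1 of 4 and the fitted value was -0.10 ± 0.09, and -0.03 without mouse 4. Mouse 10 was the lowest of its set in both cultures, well apart from mice 7, 8 and 9.

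Zg16 and Clca1 were scattered, and Clca1, at a mean of 9.7 CPM over the 16 samples, was the lowest of the 10. Zg16 stood at 159.4, 17.0, 28.5 and 14.5 CPM in untreated BR7-BR10 and at 38.2, 17.8, 24.5 and 92.5 CPM with bethanechol, so that mouse 7 was high when untreated and mouse 10 when treated. The fitted log2 fold change was 0.14 ± 1.00 (SE, n = 4), and it ran from -0.83 to 0.98 when single mice were left out. In BR1-BR4 Zg16 lay between 11.5 and 46.7 CPM, with a fitted value of 0.20 ± 0.28, which was -0.29 without mouse 2 and 0.029 with the median of its length class subtracted. Clca1 lay between 7.4 and 28.9 CPM in BR7-BR10, with a fitted value of -0.06 ± 0.32 (SE, n = 4), and -0.55 (without mouse 10) to 0.34 (without mouse 7) with 1 mouse left out. In BR1-BR4 it lay between 1.2 and 11.9 CPM, on 1 to 8 UMIs a sample in technical replicate 1, and did not pass the filter on low counts. The SE of Zg16 in BR7-BR10 was larger than the fitted value of Fcgbp, so a value of that size could not be seen in Zg16.

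Of the transcription factors, Atoh1 averaged 44.2 CPM over the 16 samples, close to Fcgbp at 45.4, and Spdef 21.9 CPM. Spdef stood at 19.5, 21.4, 17.8 and 20.7 CPM in untreated BR7-BR10 and at 17.1, 28.2, 33.1 and 20.7 CPM with bethanechol. Its fitted log2 fold changes were 0.31 ± 0.24 in BR7-BR10 and 0.33 ± 0.25 in BR1-BR4 (SE, n = 4 each), with 3 of 4 mice higher in each. The first was 0.10 without mouse 9 and 0.051 after thinning to the shallowest sample, and the second was 0.02 without mouse 2. Atoh1 was higher in 2 of 4 mice of BR7-BR10, from 32.0, 35.9, 49.3 and 37.3 CPM to 72.4, 56.1, 40.4 and 27.9 CPM, and in 1 of 4 mice of BR1-BR4, where it lay between 25.1 and 71.2 CPM. The fitted values were 0.25 ± 0.21 and -0.08 ± 0.21. With 1 mouse left out they ran from -0.02 (without mouse 7) to 0.47 (without mouse 10) and from -0.39 (without mouse 1) to 0.19 (without mouse 3). The treated and untreated values of both factors overlapped in both sets.

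**Figure D2:**
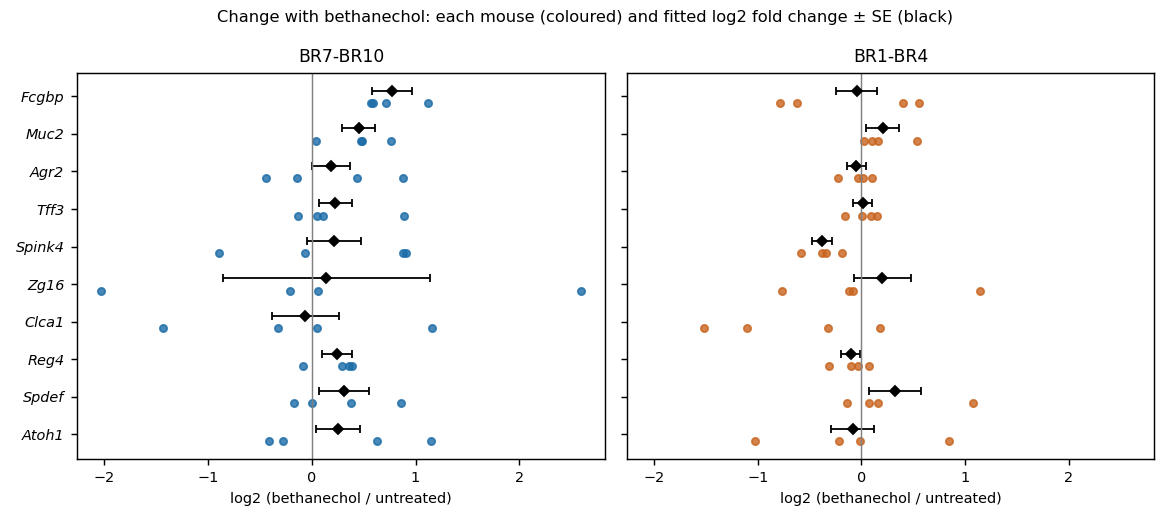
Log2 ratio of bethanechol over untreated for each mouse (coloured points) and the fitted log2 fold change with its SE (black), for BR7-BR10 on the left and BR1-BR4 on the right. Fcgbp and Muc2 have all 4 points above 0 in BR7-BR10, while Zg16 spans from -2.03 to 2.59. Clca1 in BR1-BR4 has no fitted value because it did not pass the filter on low counts.

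Across the 10 genes, 9 had a fitted log2 fold change above 0 in BR7-BR10, against 49.5% of all 9515 genes tested. Higher in 4 of 4 mice were 2 of the 10, against 5.58% of all genes, and lower in 4 of 4 mice were 0 of the 10, against 5.76%. In BR1-BR4, 4 of the 9 genes tested had a value above 0, against 50.3% of 9509. Muc2 alone was higher in 4 of 4 mice (8.59% of all genes), and Spink4 alone was lower in 4 of 4 (6.71%). As background over all genes, edgeR's quasi-likelihood test with Benjamini-Hochberg adjustment (adjusted p under 0.05) called 0% of 9515 genes in BR7-BR10 (360 genes, or 3.78%, at an unadjusted p under 0.05) and 0.021% of 9509 genes in BR1-BR4 (734 genes, or 7.72%, at an unadjusted p under 0.05). The same test of the difference between the sets called 0% of 10280 genes (451 genes, or 4.39%, at an unadjusted p under 0.05). The difference between the changes was above 0, that is larger in BR7-BR10, for 8 of the 10 genes, against 49.8% of all genes. The choice of the 10 genes used these contrasts, so nothing is read from these counts. In BR7-BR10 the 10 enteroendocrine markers summed to 509 to 1032 CPM untreated and 473 to 1083 CPM with bethanechol. The 10 colonocyte markers summed to 736 to 1420 and 965 to 1267 CPM, and the 10 stem cell markers to 777 to 861 and 671 to 895 CPM. These sums overlapped, while the very low fibroblast or endothelial sum did not (0.617 to 2.51 and 2.53 to 8.05 CPM). In BR1-BR4 the enteroendocrine (305 to 497 and 313 to 582 CPM), colonocyte (625 to 1165 and 472 to 1218 CPM) and stem cell sums (891 to 1094 and 931 to 1075 CPM) overlapped. Such ranges leave out the pairing, and those of Fcgbp and Muc2 overlapped too. The part of these markers in the changes of the goblet genes was not tested.

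Untreated cells of the sets were compared next, and the 10 genes are again only described, since their levels were part of how they were chosen. Agr2 and Muc2 were on average higher in BR7-BR10, Agr2 by a fitted log2 difference of 0.63 ± 0.17 (SE, n = 4 and 4) and Muc2 by 0.63 ± 0.18. Muc2 lay between 63.4 and 93.2 CPM in BR7-BR10 and between 40.9 and 64.4 CPM in BR1-BR4, with 1 sample of each set crossing. Agr2 lay between 1446 and 2888 CPM in BR7-BR10 and between 1325 and 1661 CPM in BR1-BR4. With 1 mouse left out the difference ran from 0.48 to 0.80 for Agr2 and from 0.51 to 0.74 for Muc2. Clca1 was at 15.6 ± 9.3 CPM in BR7-BR10 and 6.7 ± 3.8 CPM in BR1-BR4 (SD, n = 4 each), a log2 difference of 1.35 ± 0.44 (SE), which was 0.87 without mouse 7. That of Zg16 was 1.58 ± 0.97, and 0.13 without mouse 7. As background, edgeR called 1.64% of 9159 genes in this contrast (12.7% at an unadjusted p under 0.05). Of the 10 genes, 8 had a difference above 0, against 47.9% of all genes, and none separated the sets completely, against 4.55% of genes with all BR7-BR10 samples above and 3.43% with all below. Some marker sums of other cell types moved with this contrast and some did not. The enteroendocrine sum was 509 to 1032 CPM in untreated BR7-BR10 and 305 to 497 CPM in BR1-BR4. The stem cell sum was 777 to 861 and 891 to 1094 CPM, and neither of these overlapped. The cycling sum (618 to 787 and 612 to 765 CPM) and the Paneth sum (129 to 380 and 222 to 252 CPM) overlapped. So did the tuft sum (4.6 to 12.6 and 7.0 to 17.1 CPM). The colonocyte sum overlapped (736 to 1420 and 625 to 1165 CPM). Over all 8 samples of each set the colonocyte markers Krt20 (14.5 to 49.8 and 3.6 to 13.9 CPM) and Muc3 (9.1 to 30.4 and 1.8 to 8.5 CPM) did not overlap. The other colonocyte markers did, among them Car1 (514 to 1140 and 389 to 962 CPM) and Aqp8 (8.2 to 38.3 and 4.2 to 9.9 CPM). The share of all genes that separate the sets over 8 samples each was not counted, so nothing is read from Krt20 and Muc3. The part of these markers in the set differences was not tested.

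The ratio of Fcgbp to Muc2 CPM within a sample was 0.245 to 0.574 in untreated BR7-BR10 and 0.766 to 1.18 in untreated BR1-BR4, without overlap. A ratio to Muc2 that lay lower in all 4 BR7-BR10 samples was found for 23.8% of the 9158 other genes, among them Spdef. Of 3 further ratios, Spink4 to Agr2 was 0.948 to 1.58 and 1.60 to 2.62, also without overlap (12.1% of genes for a ratio to Agr2), while Tff3 to Agr2 and Zg16 to Muc2 overlapped. With bethanechol the ratios of Fcgbp to Muc2 were 0.321 to 0.709 and 0.522 to 1.08, and overlapped.

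**Figure D3:**
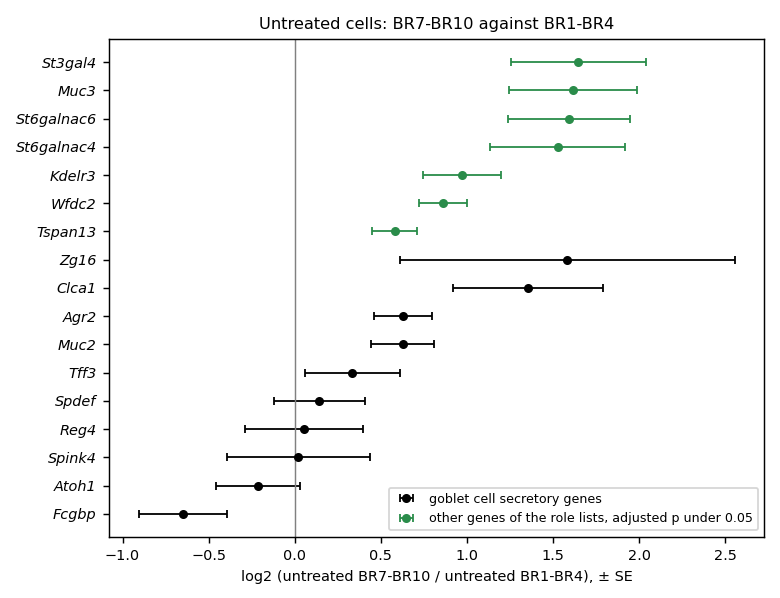
Log2 difference between untreated BR7-BR10 and untreated BR1-BR4 with its SE, for the 10 goblet genes (black) and for the 7 other genes of the role lists with an adjusted p under 0.05 (green). Fcgbp lies lowest at -0.65, and all 7 green points lie above 0.

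Other genes of the goblet programme were examined in 7 lists by role. Bethanechol changes of the genes named below are given for the set of smaller p, and the other set could differ in sign. Opposite values were those of Klf4 (-0.24 ± 0.30) and Muc4 (-0.59 ± 0.43) in BR1-BR4, and of Ang4 (0.17 ± 0.18) and Hes1 (-0.14 ± 0.13) in BR7-BR10. Others kept their sign, such as Rab3d (0.24 ± 0.15 in BR1-BR4) and Itln1 (-0.21 ± 0.38 in BR7-BR10). Over these lists, 90 genes outside the 10 were tested in BR7-BR10 and 86 in BR1-BR4, and none had an adjusted p under 0.05 with bethanechol in either set (edgeR, 2 and 4 genes at an unadjusted p under 0.05). Between untreated sets, 7 of 83 genes passed, all higher in BR7-BR10, against 0.972% of all genes tested that passed in that direction and 0.666% in the other. The lists were chosen with earlier results of these data known, so nothing is read from that count against the share. With 1 mouse left out, Wfdc2 kept its call. The other 6 lost theirs without certain mice: Kdelr3 without mouse 2, 4, 7, 8 or 9 (highest adjusted p = 0.0859), St3gal4 without 3, 4, 7 or 9 (0.0965), St6galnac4 without 1, 2, 4, 7, 8 or 9 (0.145), St6galnac6 without 4 or 7 (0.0788), Tspan13 without 2 or 8 (0.110) and Muc3 without 1, 4 or 8 (0.0873).

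Among the secreted products, 8 genes outside the 10 were tested. In BR7-BR10, 5 had a value above 0 and the median log2 fold change was 0.07, and in BR1-BR4, 7 had a value below 0 and the median was -0.25, where the medians over all genes tested were -0.002 and 0.001. The 4 of smallest p were all from BR1-BR4: the ribonuclease Ang4 (-0.37 ± 0.14, adjusted p = 0.465), the immunoglobulin receptor Pigr (-0.22 ± 0.10, adjusted p = 0.581), the scavenger receptor protein Dmbt1 (-0.29 ± 0.17, adjusted p = 0.741) and the lectin Itln1 (-0.47 ± 0.31, adjusted p = 0.792). Without mouse 4 Ang4 was at -0.16 and Dmbt1 at -0.53, and Dmbt1 was at -0.18 without mouse 1. Ang4 and Itln1 also stand among the Paneth cell markers used here, and Pigr is a receptor, so this list is not made of goblet products alone. Untreated Wfdc2, a small whey acidic protein family member secreted by goblet cells, was 317 to 505 CPM in BR7-BR10 and 178 to 229 CPM in BR1-BR4, without overlap, a log2 difference of 0.86 ± 0.14 (adjusted p = 0.000488).

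Of 9 further transcription factors tested, 4 had a value above 0 in BR7-BR10 and 3 in BR1-BR4, and none passed the test. Klf4, a factor of goblet differentiation, had a log2 fold change of 0.51 ± 0.26 in BR7-BR10 (adjusted p = 0.999), and 0.19 without mouse 10, and Creb3l1 one of 0.25 ± 0.17 (adjusted p = 0.999), which was 0.087 without mouse 9 and 0.42 without mouse 10. Xbp1, a factor of the unfolded protein response, was at -0.14 ± 0.10 in BR1-BR4 (adjusted p = 0.796) and Foxa3 at -0.10 ± 0.09 (adjusted p = 0.885). Without mouse 3 Xbp1 was at -0.037 and without mouse 1 at -0.22. Of 10 genes of the Notch pathway and other regulators of Atoh1, 4 had a value above 0 in BR7-BR10 and 7 in BR1-BR4. Hes1, the Notch target that represses Atoh1, was at 0.12 ± 0.09 in BR1-BR4 (adjusted p = 0.835), where its treated samples lay between 378 and 416 CPM and its untreated ones between 325 and 394 CPM. Id1, an inhibitor of basic helix-loop-helix factors, was at 0.34 ± 0.15 in BR1-BR4 (adjusted p = 0.580), Rfng, a modifier of Notch, at -0.49 ± 0.28 in BR7-BR10, and Huwe1, a ubiquitin ligase that acts on Atoh1, at 0.32 ± 0.23 in BR7-BR10 (adjusted p = 0.999 for both). Rfng was at -0.11 without mouse 8 and -0.84 without mouse 7, Huwe1 at 0.19 without mouse 7, and Hes1 at 0.081 without mouse 2.

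The machinery that folds and exports mucin was represented by 17 genes in BR7-BR10, of which 12 had a value above 0 (median 0.09), and by 16 in BR1-BR4, of which 6 did (median -0.03). The chaperone Hspa5 was at 0.32 ± 0.15, the goblet-type stress sensor Ern2 at 0.61 ± 0.32 and Creld2 at 0.27 ± 0.16 in BR7-BR10 (adjusted p = 0.999 for each). Without mouse 7, Hspa5 was at 0.12 and Creld2 at 0.083, and Creld2 was at 0.40 without mouse 10. The disulfide isomerase Pdia6 was at -0.15 ± 0.09 in BR1-BR4 (adjusted p = 0.774). Kdelr3, a receptor that retrieves proteins to the endoplasmic reticulum, was higher in untreated BR7-BR10 by 0.97 ± 0.23 (adjusted p = 0.0214), with 29.0 to 50.2 CPM against 18.6 to 25.6 CPM.

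Of 24 genes of mucin O-glycosylation and sulfation tested in each comparison, 16 had a value above 0 in BR7-BR10 and 13 in BR1-BR4, and none passed the test. Chst4, a sulfotransferase, was at -0.32 ± 0.18 and Galnt4, which starts O-glycan chains, at 0.46 ± 0.26 in BR7-BR10 (adjusted p = 0.999 for both). Without mouse 9 they were at -0.50 and 0.25. Between untreated sets, 3 sialyltransferases were higher in BR7-BR10: St3gal4 by 1.65 ± 0.39 (adjusted p = 0.0229), St6galnac4 by 1.53 ± 0.39 (adjusted p = 0.0374) and St6galnac6 by 1.59 ± 0.35 (adjusted p = 0.0147). Their levels in untreated cells were 8.64 to 17.8, 13.2 to 23.9 and 16.4 to 44.6 CPM in BR7-BR10, and 1.69 to 5.96, 1.39 to 11.9 and 4.03 to 14.6 CPM in BR1-BR4. With bethanechol in BR1-BR4, St3gal4 was at 0.99 ± 0.43 (adjusted p = 0.579) and St6galnac4 at 0.66 ± 0.40 (adjusted p = 0.762), the latter at 0.33 without mouse 1.

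Of the genes of granule maturation and exocytosis, 9 of 17 had a value above 0 in BR7-BR10 and 9 of 16 in BR1-BR4. The secretory granule protein Rab3d was at 0.29 ± 0.16 and the potassium channel Kcnk6 at 0.36 ± 0.26 in BR7-BR10 (adjusted p = 0.999 for both). Rab27b, a small GTPase of granule docking, was at 0.43 ± 0.25 in BR1-BR4 (adjusted p = 0.741) and the autophagy gene Atg5 at 0.27 ± 0.16 (adjusted p = 0.751). Rab27b was at 0.26 without mouse 4, 0.28 without mouse 3 and 0.73 without mouse 1, and Rab3d at 0.20 without mouse 8. The tetraspanin Tspan13 was higher in untreated BR7-BR10 by 0.58 ± 0.13 (adjusted p = 0.0148).

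The transmembrane mucins, which form the cell-bound glycocalyx rather than the gel, were few and mostly low. All 5 tested in BR7-BR10 had a value above 0 (median 0.50), and all 3 tested in BR1-BR4 a value below 0 (median -0.37). Muc1 went from 3.09 to 6.28 CPM in untreated BR7-BR10 to 6.98 to 16.1 CPM with bethanechol. It was higher in 4 of 4 mice, as were 5.58% of all genes. Its untreated values lay near the counting limits of technical replicate 1 (1.97 to 3.89 CPM). Muc1 was named for its small p, so nothing is read from that count. Its log2 fold change of 1.21 ± 0.40 did not pass the edgeR test (adjusted p = 0.999), and it lay between 0.496 and 5.08 CPM in BR1-BR4. Muc4 was at 0.50 ± 0.31, Muc3a at 0.52 ± 0.43 and Muc13 at 0.19 ± 0.15 in BR7-BR10 (adjusted p = 0.999 for each). Without mouse 7 Muc4 was at 0.30 and Muc13 at 0.32, and without mouse 8 Muc3a was at 0.31. Muc3, which also stands among the colonocyte markers, was higher in untreated BR7-BR10 by 1.62 ± 0.37 (adjusted p = 0.0170).

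The goblet genes varied together only in part. Log2 CPM was correlated over the 16 samples after the mean of each set was subtracted, which leaves treatment, mouse and library depth as shared sources, and 38 of the 45 pairs had a positive Pearson r, against 51.2% of all pairs of 10280 genes, with a median of 0.37 against 0.00965 over all pairs. Agr2, Tff3 and Spink4 formed the tightest group, with r = 0.94 for Agr2 and Tff3, 0.90 for Agr2 and Spink4, and 0.82 for Tff3 and Spink4. Muc2 stood outside that group (r = 0.10 with Agr2 and 0.11 with Tff3) and varied most with Spdef (r = 0.62) and Fcgbp (r = 0.61). Fcgbp had a positive r with each of the other 9 genes, from 0.18 with Zg16 to 0.61 with Muc2. Most of the UMIs of the 10 genes, 95.4% to 98.1% in each sample, came from Spink4, Agr2, Tff3 and Reg4.

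**Figure D4:**
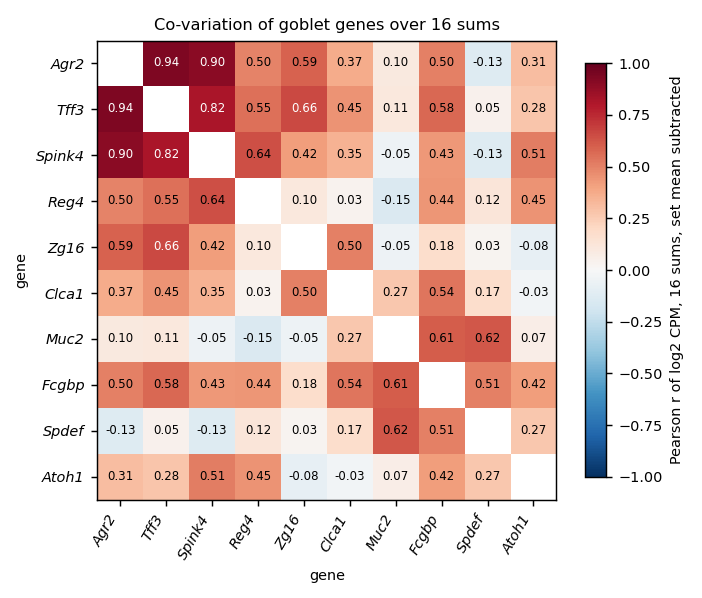
Pearson r of log2 CPM for each pair of the 10 genes over 16 samples, with the mean of each set subtracted. Agr2, Tff3 and Spink4 form a block with r from 0.82 to 0.94, and Muc2 is linked to Fcgbp and Spdef with r of 0.61 and 0.62.

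The genes whose pattern was most like that of Fcgbp were not goblet genes. Over the 16 samples the highest r among 10279 genes belonged to AI661453 (0.90), Ctnnb1, which codes for beta-catenin (0.85), Myh9, a non-muscle myosin heavy chain (0.85), the stress sensor Atf6 (0.85) and Nufip2 (0.84), and Muc2 ranked 176. Over the 8 within-mouse changes the highest were Fbxo42 (0.94), Chd3 (0.94), Dennd1a (0.93), Aagab (0.93) and Gde1 (0.93), with Clca1 at rank 180 (r = 0.73) and Muc2 at rank 240 (r = 0.70). With so many genes and few points these are descriptions of the nearest profiles.

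Of the close relatives of the secreted genes, most were scarce. Muc5b collected 1 UMI and Muc6 20 UMIs in all 16 samples with both technical replicates summed, and Tff1 and Tff2 collected 5 and 58. Agr3 lay between 1.80 and 13.0 CPM. Clca3b was the exception in its family, at 215 to 396 CPM, whereas Clca3a1, Clca3a2, Clca4a and Clca4b stayed at or below 7.11 CPM. Of the relatives of Reg4, the antimicrobial lectins Reg3g and Reg3b lay between 8.9 and 28.5 CPM and between 3.5 and 10.7 CPM, while Reg1 stayed at or below 1.98 CPM.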

How the data were processed

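Lgr5-EGFP+ cells from cultures of 8 mice, untreated or treated with 250 nM bethanechol, gave 32 libraries (267146 to 2119938 UMIs each). The authors deposited raw UMI counts per gene; by their methods, reads were processed with the Drop-seq pipeline, aligned to GRCm38 and counted on GENCODE annotation. The 10 genes and all lists were chosen with earlier results of these data known, so no p-value of the 10 is given. Technical replicates 1 and 2 of a culture, after the ratio common to each gene was removed, differed with a chi-square per degree of freedom of 0.516 over 3681 genes, below the value of 1 of independent counting, so both were counted as 1 sample. They may hold the same molecules, and counting limits therefore rest on technical replicate 1 (267146 to 1930404 UMIs).

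Counts were scaled by TMM and given as CPM, not divided by transcript length. Genes were kept by filterByExpr and tested in edgeR 4.0.16 (R 4.3.3, quasi-likelihood, robust) with mouse and treatment as terms, each set alone, over both sets for the difference of changes, and without mouse for untreated sets, with Benjamini-Hochberg adjustment over all genes tested at 0.05. SEs are the fitted log2 fold change over the square root of F. They borrow spread from all genes and can be smaller than the spread between 4 mice. Mouse was a block because both cultures of a mouse share the animal per the labels; correlations of their deviations ran from -0.0218 to 0.258. Genes outside the 10 were named by the smallest p, up to 4 per list, plus those called between untreated sets, and the genes most like Fcgbp as the 5 of highest Pearson r. Alternatives were DESeq2 1.42.0, its size factors, no low-count filter, single technical replicates, thinning to the shallowest sample, 1 fit for both sets, no block and each mouse left out; subtraction of the length-class median was chosen after seeing the data. Gene positions are from GENCODE M21 and promoters from RefSeq; no protein sequence was used here.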

Additional observations from a re-analysis of the deposited data

Results flagged for a closer look

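In groups of 4 samples, a value was singled out when its gap to the nearest other, over the whole range of the group, passed Dixon's 95% critical value of 0.829. Of 40 groups of the 10 genes, 5 had such a value. Chance gives about 1 in 20 for independent groups, but these groups share samples and genes that vary together, so the values are descriptions and nothing is read from their number. Spink4 in mouse 7 of BR7-BR10 with bethanechol was at 7607 CPM, with the next at 2524. Zg16 in mouse 7 of BR7-BR10 untreated was at 159.4 CPM, with the next at 28.5, and Zg16 in mouse 2 of BR1-BR4 with bethanechol was at 46.7 CPM, with the next at 16.2. Reg4 was low in mouse 10 of BR7-BR10 untreated, at 308.5 CPM with the next at 792, and in mouse 4 of BR1-BR4 with bethanechol, at 433.7 CPM with the next at 684. Fcgbp, Muc2, Agr2, Tff3, Clca1, Spdef and Atoh1 had no such sample. The cause was not tested.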

How the results depend on the processing

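The log2 fold changes of Fcgbp and Muc2 in BR7-BR10 stayed above 0 under each of 12 other settings (0.63 to 0.90 and 0.32 to 0.62), and those of Muc2 (0.09 to 0.27) and Spink4 (-0.44 to -0.30) in BR1-BR4 kept their sign. The value of Fcgbp in BR1-BR4 changed sign in 5 of 12. Genes called in BR7-BR10 numbered 0 under all alternatives except that leaving out 1 mouse gave 0 to 4 (4 without mouse 9). In BR1-BR4 the count was 2, but 14 with DESeq2, 88 without the filter, 9 on technical replicate 1, 22 after thinning, 0 in one fit for both sets, and 0 to 19 with 1 mouse left out (0 without mouse 1 or 2, 19 without mouse 4). Without the filter 1 gene was called for the difference of changes. Without the replicate block, the pairing of both cultures of a mouse, 0 genes were called in BR7-BR10 and 0 in BR1-BR4, and the block changed no other call. Between untreated sets the count was 150, 234 without the filter and 74 to 210 with 1 mouse left out (74 without mouse 2).

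Several values changed sign. Huwe1 and Kcnk6 in BR7-BR10, 0.32 and 0.36, were -0.036 and -0.21 after thinning. With 1 mouse left out, Agr2, Spink4, Zg16, Clca1 and Atoh1 in BR7-BR10 and Fcgbp, Agr2, Tff3, Zg16 and Atoh1 in BR1-BR4 changed sign at least once. Untreated Spdef was -0.0062 on technical replicate 1, untreated Spink4 -0.16 and Reg4 -0.0032 after subtraction of the length median, and both moved with 1 mouse left out, from -0.18 to 0.27 and from -0.080 to 0.31. On a single technical replicate, in the comparison of untreated sets, Kdelr3, St6galnac4, St6galnac6 and Muc3 lost their calls (adjusted p = 0.142, 0.169, 0.101 and 0.0747). The cause was not tested. In technical replicate 1, Fcgbp rests on 18 to 146 UMIs a sample and Clca1 on 1 to 25, which limits what can be seen in them.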
